A study of Mus musculus with 4 samples.

Results

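The cells described here are the stimulated CD4 T cells of this series that gave the largest share of their transcripts to 5 amino-acid stress genes, Chac1, Cth, Atf5, Psph and Eif4ebp1. They number 1553 of 15524 eligible cells. CD3+ CD4+ T cells were sorted from the spleens of C57BL6/J mice, stimulated for 6 hours on anti-CD3 and anti-CD28 beads, and sequenced as single cells in droplets by a 3′ method. There were 4 libraries, 1 per group: female labelled Irf5-/-, female labelled WT, male labelled Irf5-/- and male labelled WT. All 4 received the beads, so each level below is one after stimulation. Irf5 encodes a transcription factor of inflammatory and interferon responses. The labels give neither the number of mice in a library, nor a batch, nor the part of Irf5 that was deleted. Values for the 4 libraries stand in the order just given throughout.

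Eligible cells were barcodes with at least 2000 UMIs, at least 500 genes, at most 10% mitochondrial UMIs, at least 1 UMI of Cd3e, Cd3d or Cd3g, fewer than 2 UMIs of Egr3 and no UMI of Foxp3. A UMI is one counted transcript molecule. The score of a cell was the sum of its UMIs of the 5 genes divided by all its UMIs, and the highest 10% within each library were kept. This gave 501, 147, 528 and 377 high-score cells, which were set against the remaining 4505, 1325, 4748 and 3393. Because the cut was made within each library, the share of high-score cells is fixed and carries no information on genotype or sex.

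Amino-acid shortage, misfolded protein, heme deficiency and viral RNA each activate a kinase that phosphorylates the initiation factor eIF2, which slows translation in general while the transcription factor ATF4 is made in larger amount. ATF4, with C/EBP partners, then switches on genes that import amino acids, synthesise them and charge them onto tRNA. In T cells the same genes also rise with activation, when growth raises the demand for serine, glycine and asparagine. Among the scoring genes, Psph completes the synthesis of serine, Cth makes cysteine from cystathionine, Chac1 degrades glutathione, Atf5 encodes a transcription factor related to ATF4, and Eif4ebp1 encodes 4E-BP1, which holds back cap-dependent translation.

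ATF4 and its C/EBP partners bind a composite DNA element with the letters TGATGNAA, where N is any base. Of the promoters that carried these letters, 6 are shown as examples, all of genes described below. Each line is a window of at most 30 bases from RefSeq on GRCm38.p6, written 5′ to 3′ on the strand that reads TGATGNAA, with the match in capitals.
Chac1, chr2:119351038-119351067, minus strand: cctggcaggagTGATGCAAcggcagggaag
Asns, chr6:7693214-7693243, minus strand: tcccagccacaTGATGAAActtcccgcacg
Pck2, chr14:55540152-55540181, minus strand: ctgtaagatacTGATGTAActttgaaggct
Slc7a11, chr3:50443661-50443690, minus strand: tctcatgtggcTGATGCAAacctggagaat
Gars, chr6:55037960-55037989, minus strand: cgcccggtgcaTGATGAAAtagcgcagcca
Jdp2, chr12:85599372-85599401, plus strand: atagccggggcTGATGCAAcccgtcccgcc
The search covered 250 bases before the gene start on both strands. It found the letters in 3.91% of the 27025 genes of the promoter table. They occurred in 11 of the 50 genes (22.0%) that could be matched among the scoring genes, the amino acid synthesis and transport genes, the tRNA synthetases and ATF4 with its partner factors. Of the 5 scoring genes, 3 could be matched, and only Chac1 carried the letters. Eif4ebp1 and Cth were not in the promoter table. The match is a description of the letters and not evidence of binding.

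Counts of the targeted gene could not check the labels. Among eligible cells, Irf5 (chromosome 6, 29526625 to 29541871, plus strand) had 233, 12, 308 and 28 UMIs, or 8.35, 0.915, 7.97 and 0.725 CPM (counts scaled to the total UMIs). Irf5 was thus higher in both libraries labelled knockout, as it was in droplets of under 200 UMIs (13.6, 2.30, 14.3 and 1.71 CPM). Since the deleted part is not given, UMIs from elsewhere in the gene would check nothing. Groups are therefore called libraries labelled knockout and labelled wild type. The libraries held 28841161 to 55850754 UMIs. The female library labelled wild type stood apart, with the fewest cells and 36.2% of its UMIs in droplets of under 200 UMIs, against 8.62% to 14.7% in the others. Pairs of libraries shared 1 to 9 of the eligible barcodes.

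T cell markers were present in the high-score cells. Cd4 was at 42.0, 41.2, 45.5 and 41.1 CPM against 50.1, 46.9, 51.4 and 60.0 CPM, from here on scaled by edgeR's TMM factors. Cd4 fell by 0.31 on the log2 scale, and Trac, the constant part of the T cell receptor alpha chain, rose by 0.17. Cd3e, Cd3d and Cd3g, which the eligibility rule used, are given as a description and had log2 fold changes of -0.36, -0.22 and -0.38. The summed level of 7 T cell markers was 2592 to 2972 CPM against 2621 to 3056 CPM. Of 5 B cell markers, Ms4a1 was among those at 0, and the summed level was 12.3 to 18.7 CPM against 21.9 to 207 CPM in the remaining cells. Of 4 myeloid markers, Lyz2, Itgam and Csf1r were at 0, and the summed level, all from Cst3, was 29.0 to 38.9 CPM against 31.5 to 59.9 CPM. It was above that of the remaining cells in the male library labelled wild type (38.9 against 35.9 CPM). The summed level of 2 CD8 markers was 3.86 to 9.60 CPM against 8.73 to 9.67 CPM, that of 4 natural killer markers 4.80 to 7.77 CPM against 4.14 to 9.67 CPM, and that of 3 gamma-delta markers 2.10 to 7.54 CPM against 4.48 to 16.4 CPM. The natural killer sum was higher in high-score cells in 3 of 4 libraries and the gamma-delta sum in the male library labelled wild type. Their part in the results was not tested. The 4 erythroid markers summed to 10.95 CPM in the high-score cells of the female wild-type-labelled library, whose remaining cells held 116 CPM, and to at most 1.04 CPM in those of the other libraries.

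The score was carried mainly by Eif4ebp1 and Psph. Eif4ebp1 (chromosome 8, 27260329 to 27276674, plus strand) gave 51.5% to 54.3% of the scoring UMIs of the high-score cells, and Psph (chromosome 5, 129765558 to 129787449, minus strand) gave 31.2% to 33.4%. Atf5 (chromosome 7, 44812256 to 44816658, minus strand) gave 5.93% to 7.46%, Chac1 (chromosome 2, 119351229 to 119354381, plus strand) 4.05% to 4.5% and Cth (chromosome 3, 157894248 to 157925077, minus strand) 2.97% to 4.68%. A Chac1 UMI was missing from 365, 88, 339 and 209 of the high-score cells, and all 5 genes were found together in 6, 4, 7 and 21. Eif4ebp1 alone was the leading gene in 295, 105, 356 and 276 cells and Psph alone in 105, 27, 109 and 67.

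No gap in the score separated the high-score cells from the others. The median score was 14, 12.8, 13.7 and 13.4 scoring UMIs per 10000 UMIs in the high-score cells and 2.95, 2.92, 2.86 and 3.38 in the remaining cells. The lowest high-score cell stood at 11.4, 10.8, 11.3 and 11.1, and the highest remaining cell had the same values to 3 digits. Within 10% of this limit lay 136, 50, 143 and 106 high-score cells and 172, 47, 169 and 168 remaining cells. A score of 0 was found in 31.8%, 26.9%, 30.1% and 26.3% of eligible cells. The score rests on few molecules, with a median of 9, 14, 12 and 17 scoring UMIs per high-score cell. In droplets of under 200 UMIs, Psph was at 181, 143, 187 and 168 unscaled CPM, against 184, 170, 179 and 188 in eligible cells. Eif4ebp1 was at 264, 194, 315 and 272 against 287, 285, 294 and 309. Counts were not corrected for such free RNA, and its part in the score was not tested. When every cell was thinned at random to 2000 UMIs and scored again, 262, 73, 252 and 175 of the high-score cells were chosen again.

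High-score cells were deeper. The median was 6317, 10171, 8369 and 12390 UMIs per high-score cell against 5036, 8367, 6606 and 9399 per remaining cell, a mean difference of 1960 UMIs (SD 727, higher in 4 of 4 libraries). Total UMIs divide the score, so depth took part in the choice of cells and this difference is a description. A two-sided exact permutation test over the signs of the 4 libraries gave p = 0.125. That is the smallest value it allows, so the test could not decide the question. High-score cells had a median of 3.53% to 3.59% mitochondrial UMIs, against 3.81% to 3.93% in the remaining cells. Doublets were not called, and 37, 18, 41 and 28 high-score cells belonged to the 5% of eligible cells with most UMIs in each library, more than 5% of the high-score cells in every library.

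The values of the scoring genes in the cells they chose are a description. Eif4ebp1 was at 756, 746, 773 and 807 CPM in high-score cells and at 213, 221, 216 and 252 CPM in the remaining cells. Psph was at 491, 428, 467 and 469 CPM against 136, 134, 132 and 157 CPM. Chac1 was at 61.8, 61.8, 58.7 and 67.4 CPM against 19.5, 19.6, 20.5 and 23.8 CPM.

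Whether the 5 genes moved together was read by choosing the cells with 4 of them and measuring the fifth. The 5 genes were set with earlier results of these data known, and the total UMIs enter both choice and level. The p-values below are therefore a description and not independent support. Each left-out gene rose, in every library, by edgeR's quasi-likelihood test with Benjamini-Hochberg adjustment over all genes tested. Chac1 was at 37.7, 47.9, 42.6 and 49.9 CPM in cells chosen by the other 4 genes and at 22.6, 21.3, 22.6 and 26.1 CPM in the rest, without overlap. Chac1 thus rose by 0.92 on the log2 scale (SE 0.08, adjusted p = 8.18e-09). Cth rose the most, from 10.1, 10.5, 9.96 and 15.9 CPM to 28.8, 29.6, 24.3 and 40.3 CPM (log2 fold change 1.39, SE 0.10, adjusted p = 6.22e-09). The log2 fold changes of Psph, Eif4ebp1 and Atf5 were 0.89, 0.85 and 0.82, with SE of 0.03, 0.03 and 0.07. The cells chosen without Eif4ebp1 included 286, 85, 303 and 220 of the high-score cells, so the choice depends on that gene more than on any other of the 5. Each rise was smaller among the more activated cells, that is, those at or above their library's median share of UMIs from 19 early activation genes. There Chac1 had a log2 fold change of 0.33 and no longer passed (edgeR adjusted p = 0.108), while Cth (0.85), Atf5 (0.52), Psph (0.52) and Eif4ebp1 (0.50) did.

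**Figure D1:**
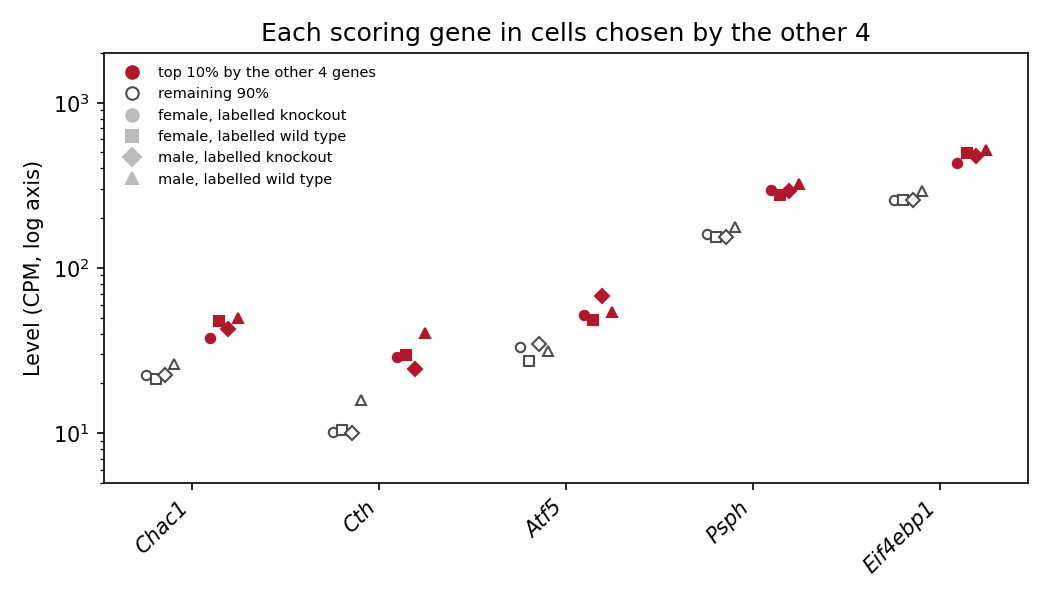
Level of each scoring gene (CPM, log axis) in the 10% of cells chosen by the other 4 scoring genes (filled) and in the remaining 90% (open), with 1 symbol shape per library. For all 5 genes the 4 filled symbols sit above the 4 open ones, as for Chac1 at 37.7 to 49.9 CPM against 21.3 to 26.1 CPM.

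High-score cells differed from the remaining cells across much of the transcriptome. Of 10155 genes tested, 4688 passed an adjusted p of 0.05 (46.2%), 2245 higher (22.1%) and 2443 lower (24.1%), the 5 scoring genes left out of the counts. Against remaining cells with a score above 0, 1972 of 9746 genes passed (20.2%), 1073 higher (11%) and 899 lower (9.22%). Among the more activated cells only, with 250, 74, 264 and 188 high-score cells, 783 of 8887 genes passed (8.81%), 411 higher (4.62%) and 372 lower (4.19%). With high-score cells chosen within 5 groups of equal activation, 2642 of 10210 passed (25.9%). The groups of genes below are given in the first 3 of these comparisons, and each share is to be read against these percentages. The genes outside the score were not used to choose the cells, but they were counted in the same cells and share the total UMIs that divide the score. The libraries differ in labelled sex or genotype, so by their labels they come from different mice. The number of mice in each is not given, and no group has a replicate library. The p-values therefore measure the spread between these libraries, which may be technical.

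Enzymes that make amino acids rose almost throughout. Of 14 tested, 13 rose (median log2 fold change 0.58), as did 12 against score-positive remaining cells and 7 among the more activated cells. Asns, asparagine synthetase, was the gene outside the score with the largest rise among those at 20 CPM or more. Asns stood at 48.3, 48.3, 62.8 and 51.0 CPM in high-score cells against 26.7, 27.8, 19.0 and 30.4 CPM in the remaining cells, without overlap. Its log2 fold change was 1.08 (SE 0.13, edgeR adjusted p = 1.29e-06) and stayed at 0.85 among the more activated cells (adjusted p = 7.26e-06). The serine pathway enzymes Phgdh and Psat1, which act upstream of Psph, rose by 0.61 and 0.57. Phgdh was at 666, 615, 692 and 690 CPM against 443, 425, 431 and 449 CPM. Shmt2 and Mthfd2, which pass serine carbon into the mitochondrial folate cycle, rose by 0.55 and 0.57. Got1 and Bcat1, transaminases of aspartate and of branched-chain amino acids, rose by 0.58 and 0.70.

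Pck2, the mitochondrial enzyme that makes phosphoenolpyruvate and an ATF4 target outside that list, was at 118, 126, 121 and 123 CPM against 65.3, 69.2, 65.3 and 76.0 CPM. Its log2 fold change was 0.82 (SE 0.05, edgeR adjusted p = 2.12e-10), and 0.47 among the more activated cells (adjusted p = 7.22e-05).

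Amino acid transporters rose in 10 of 11 tested (median 0.51), in 10 against score-positive remaining cells and in 6 among the more activated cells. Slc6a9, a glycine carrier, was at 35.1, 41.2, 33.4 and 46.2 CPM against 17.4, 24.4, 18.1 and 22.6 CPM, a log2 fold change of 0.94 (SE 0.08, edgeR adjusted p = 3.73e-08). Slc7a11, which imports cystine, rose by 0.75. Slc7a5 and Slc3a2, the subunits of the large neutral amino acid carrier, rose by 0.58 and 0.51. Slc1a5, which carries glutamine, rose by 0.47. All 5 also passed among the more activated cells, at 0.65, 0.47, 0.18, 0.16 and 0.19. Slc7a1, the arginine carrier, rose by 0.44 but stood at 0.06 there.

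Enzymes that charge tRNA rose in 18 of 20 tested (median 0.39), in 15 against score-positive remaining cells and in 5 among the more activated cells. Gars, which charges glycine, rose most, from 251, 264, 241 and 267 CPM to 381, 376, 384 and 412 CPM (log2 fold change 0.61). Nars, for asparagine, rose by 0.48. Lars, for leucine, rose by 0.43 and stood at 0.09 among the more activated cells. Qars and Wars did not pass, at log2 fold changes of -0.11 and -0.08.

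ATF4 and its partners rose in 8 of 13 tested (median 0.39), with 2 that fell. They rose in 7 against score-positive remaining cells and in 4 among the more activated cells, with 1 that fell in each, Eif2ak2 in the former and Atf3 in the latter. Atf4 itself was at 409, 417, 405 and 425 CPM against 282, 309, 292 and 290 CPM (log2 fold change 0.50, SE 0.03, edgeR adjusted p = 3.09e-10). Cebpb, which encodes a C/EBP partner, rose by 0.70, and Ddit3, which encodes the partner CHOP, rose by 0.45. Trib3, a pseudokinase that restrains ATF4, was at 79.5, 106, 85.4 and 91.0 CPM against 47.2, 51.4, 52.2 and 51.3 CPM, a log2 fold change of 0.81. These 4 also passed among the more activated cells, at 0.19, 0.39, 0.20 and 0.34. Jdp2, a repressor of the same leucine zipper family, was at 7.80, 7.73, 6.89 and 3.43 CPM against 2.14, 2.48, 2.56 and 2.61 CPM (log2 fold change 1.33), and did not pass there (0.49). Atf3, a stress-induced repressor gene, was at 140, 141, 134 and 106 CPM against 114, 121, 117 and 81.6 CPM, a rise of 0.28, and turned to -0.17 among the more activated cells (edgeR adjusted p = 0.0495). In the whole pool the genes of 2 eIF2 kinases fell. Eif2ak2 (PKR), which is also induced by interferon, had a log2 fold change of -1.49 and Eif2ak3 (PERK) one of -0.66, which did not pass without the female library labelled knockout (-0.57), the female library labelled wild type (-0.66) or the male library labelled knockout (-0.44). Eif2ak4 (GCN2), which senses uncharged tRNA, did not pass (0.23).

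**Figure D2:**
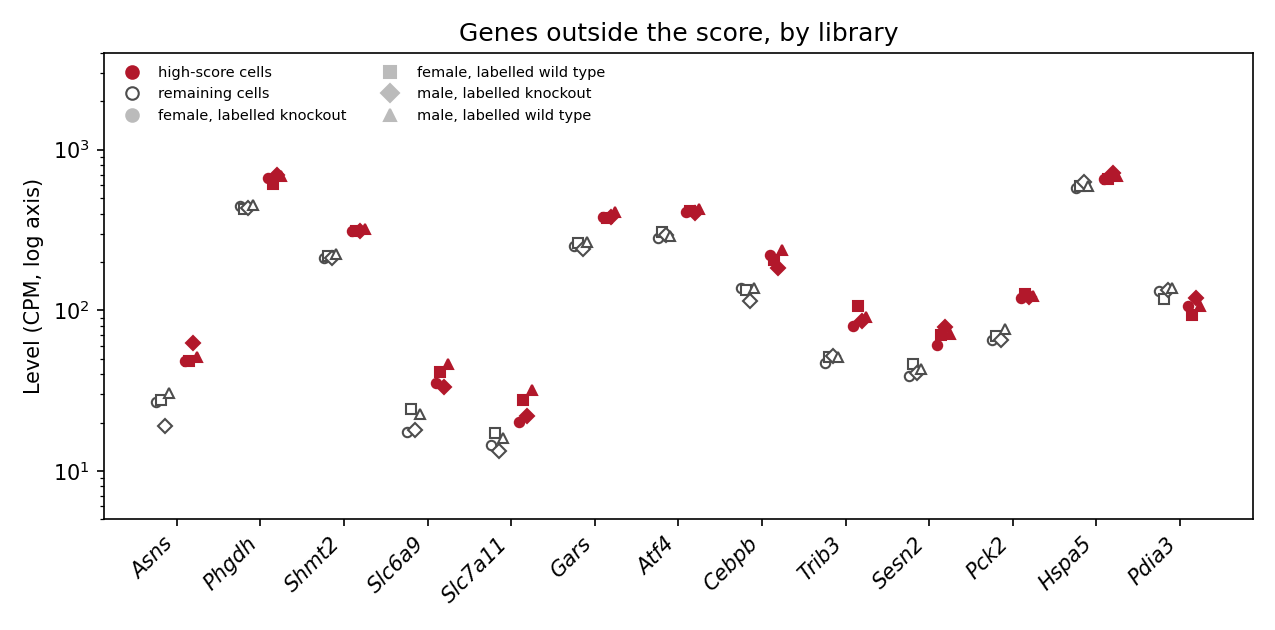
Level (CPM, log axis) of 13 genes outside the score in high-score cells (filled) and in the remaining cells (open), with 1 symbol shape per library. The filled symbols sit above the open ones from Asns to Pck2 and, by a smaller margin, for Hspa5 (654 to 720 against 580 to 632 CPM), and Pdia3 is lower in high-score cells.

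Brakes on the growth kinase mTORC1 moved in both directions. Of 8 tested, Sesn2 and Ddit4 rose and 4 fell. Against score-positive remaining cells 2 rose and 1 fell, and among the more activated cells 1 rose. Sesn2, whose protein senses leucine, was at 61.2, 70.2, 78.3 and 71.1 CPM against 38.9, 46.1, 40.8 and 43.0 CPM (log2 fold change 0.76, and 0.44 among the more activated cells). Ddit4 rose by 0.61 and stood at 0.28 among the more activated cells (edgeR adjusted p = 0.0819). Rragd, which encodes a Rag GTPase that relays amino acid supply to mTORC1 and is not itself a brake, was at 1.80, 1.29, 1.04 and 0.686 CPM against 14.6, 12.1, 14 and 4.66 CPM. Its log2 fold change was -3.25, and -0.73 among the more activated cells, where it did not pass.

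Chaperones of the endoplasmic reticulum moved in both directions as single genes. Their summed level was higher in high-score cells in every library, at 1999, 1822, 2124 and 2029 CPM against 1925, 1779, 1986 and 1927 CPM. Per cell, 60.3%, 57.8%, 61.2% and 59.9% of the high-score cells exceeded the median of the remaining cells. Of 18 tested, 5 rose and 4 fell, with a median log2 fold change of 0.02 beside -0.02 over all genes tested. Against score-positive remaining cells 2 rose and 5 fell. Among the more activated cells only Herpud1, which acts in degradation of misfolded proteins, and the co-chaperone Dnajb9 passed, at 0.25 and 0.32. Hspa5 (BiP), the main chaperone of that compartment, was at 654, 655, 720 and 683 CPM against 580, 596, 632 and 597 CPM. Its log2 fold change was 0.18 in the whole pool, -0.00060 against score-positive remaining cells and -0.08 among the more activated cells, where it did not pass. Pdia3, a disulphide isomerase, fell by 0.28 on the log2 scale.

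Chaperones and proteases of the mitochondrion rose in 7 of 8 tested (median 0.38), in 5 against score-positive remaining cells and in 4 among the more activated cells. Hspa9 was at 684, 687, 683 and 759 CPM against 465, 514, 479 and 515 CPM. Lonp1, a matrix protease, rose by 0.69, and Hspd1 and Hspe1, which form the folding chamber, by 0.39 and 0.37. Gdf15, a hormone gene of this response, had no UMI in the high-score cells of any library. Genes against oxidative stress rose in 6 of 10, in 3 and in 2, with Txn1 (thioredoxin) at 0.40 and 0.29 among the more activated cells.

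Growth genes rose with the score as well. All 20 nucleolar genes rose (median 0.41), 16 did against score-positive remaining cells, and 5 did among the more activated cells. Npm1 was at 5022, 5486, 5082 and 5931 CPM in high-score cells and at 3672, 4076, 3730 and 4133 CPM in the remaining cells. Translation initiation genes rose in 13 of 16 with 1 that fell, in 10 against score-positive remaining cells and in 4 among the more activated cells, where Eif2s2, a subunit of eIF2, stood at 0.21. Glycolysis genes rose in 12 of 18 with 3 that fell. Against score-positive remaining cells 11 rose and 2 fell, and 4 of 17 rose among the more activated cells. Hk2, an inducible hexokinase, was at 96.6, 67.0, 70.8 and 70.8 CPM against 48.3, 44.5, 38.2 and 44.8 CPM (log2 fold change 0.82). Sterol synthesis genes did not follow, with 1 that rose and 2 that fell of 19, 1 and 4 of 19 against score-positive remaining cells, and 1 that fell of 17 among the more activated cells.

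Among other genes named for the size of their rise, Ybx3, which encodes an RNA-binding protein, rose by 0.78, Cyb5r1 by 0.75, Plscr1 by 0.74 and Vegfa, an angiogenic factor gene, by 0.73. Ybx3 (0.44) and Cyb5r1 (0.63) passed among the more activated cells, while Plscr1 (0.42) and Vegfa (0.29) did not.

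**Figure D3:**
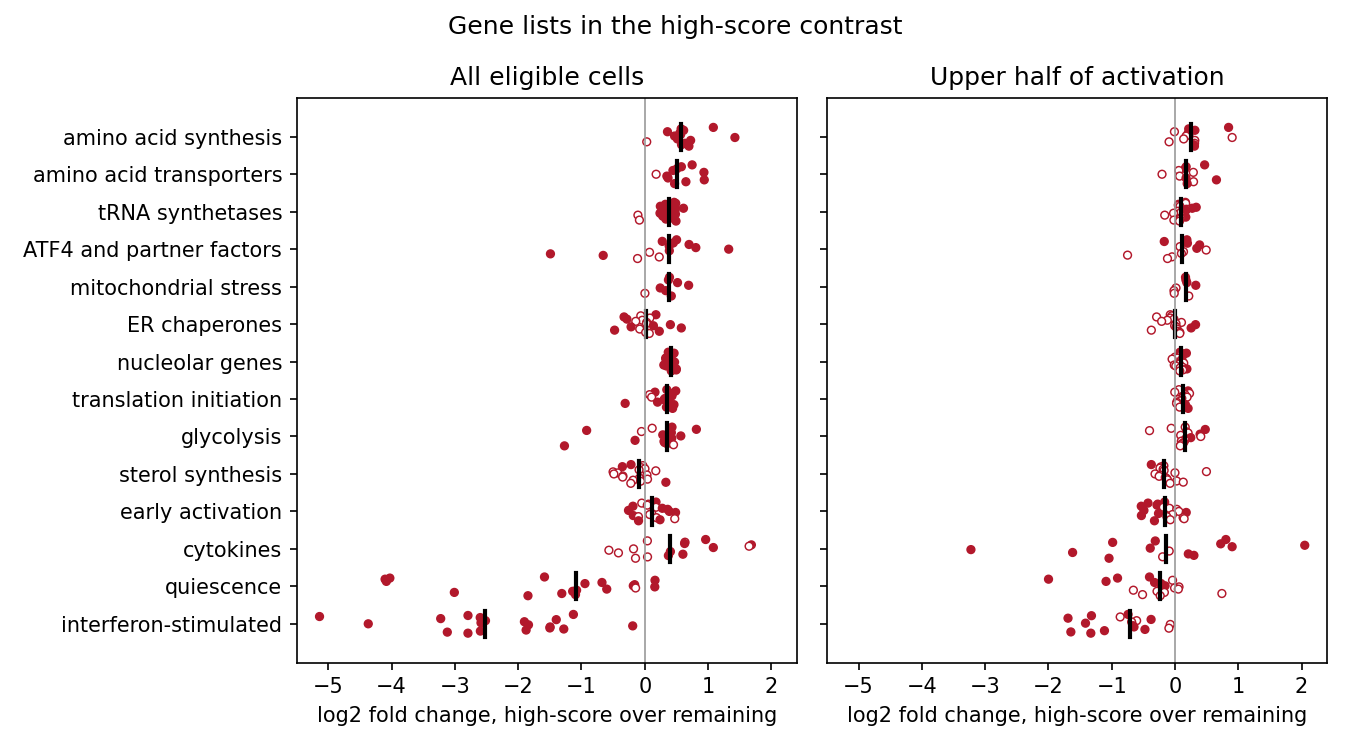
Log2 fold change of every tested gene of 14 lists, high-score over remaining cells, in all eligible cells (left) and among the more activated cells (right). Filled points passed an adjusted p of 0.05, open points did not, and bars are medians, such as 0.58 and 0.26 for amino acid synthesis and -2.52 and -0.71 for interferon-stimulated genes.

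Single early activation genes were mixed, and their direction depended on the cells compared. The summed list was higher in high-score cells in all 4 libraries, at 6168, 6536, 6025 and 5950 CPM against 5483, 5806, 5424 and 5311 CPM. Per cell, 67.3%, 68.7%, 72.5% and 69.8% of the high-score cells exceeded the median of the remaining cells. In the whole pool 6 of 19 rose and 4 fell (median 0.11), and against score-positive remaining cells 4 rose and 6 fell. Irf4, whose level follows the strength of receptor signalling, was at 799, 825, 787 and 801 CPM against 641, 626, 614 and 616 CPM, and Il2ra rose by 0.39. Tnfrsf4 (OX40) rose by 0.49. Among the more activated cells, a pool chosen by this very list, 1 rose and 9 fell (median -0.16). There Egr1 had a log2 fold change of -0.53 and Nfkbid one of -0.53, and Cd69 turned from 0.18 to -0.16. Eligibility capped the Egr3 UMIs of a cell whatever its depth, and high-score cells were deeper. The part of that cap in the direction of the early activation genes was not tested. When the choice was made within 5 groups of equal UMIs per cell, where 19.7% of all genes tested were higher, 13 rose, and Egr1 (0.11), Irf8 (0.12), Nfkbid (0.10) and Rel (0.08) turned positive. In the whole pool Egr1 (-0.19) did not pass without the female library labelled wild type (-0.11) or the male library labelled knockout (-0.17), nor did Rel (-0.10) without the latter (-0.06).

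Genes of resting T cells fell with the score. Of 18 quiescence genes, 15 fell (median -1.09) and Ccr7 and Foxp1 rose slightly, both by 0.16. Against score-positive remaining cells 12 fell (median -0.40), and among the more activated cells 8 fell (median -0.23). Il7r, the interleukin 7 receptor, was at 14.4, 8.37, 8.77 and 6.17 CPM against 111, 123, 146 and 223 CPM, a log2 fold change of -4.08 (SE 0.15), and -1.09 among the more activated cells. S1pr1, the receptor for exit from lymphoid organs, had a log2 fold change of -4.03, and -0.91 among the more activated cells. Other genes named for their fall were Rflnb (-4.93), Cnp (-4.53), Selenop (-3.87), Cmah (-3.69), Mxd1 (-3.61), Rasa3 (-3.49), 9930111J21Rik2 (-3.36), Patj (-3.24) and Itga6 (-3.14). Of these, Mxd1, an antagonist of MYC, kept the largest change among the more activated cells (-2.33), and Selenop did not pass there (-0.84).

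Interferon-stimulated genes fell furthest as a group. All 19 tested fell (median -2.52), as did 17 of 18 against score-positive remaining cells (median -1.38) and 11 of 16 among the more activated cells (median -0.71). Irf7, which encodes a transcription factor of interferon responses, was at 5.70, 1.93, 2.51 and 1.37 CPM against 34.8, 30.2, 30.1 and 15.3 CPM. Rtp4 had a log2 fold change of -3.12 in the whole pool and -1.65 among the more activated cells (edgeR adjusted p = 2.46e-05). Per cell, 17.2%, 18.4%, 16.7% and 17.2% of the high-score cells exceeded the median of the remaining cells for the summed list.

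The position of these changes along the score was read from 7 bins: cells with a score of 0, 4 bins of equal size of the remaining cells with a score above 0, and 2 bins of the high-score cells. For the lists given here the largest step lay between a score of 0 and the lowest positive scores. The amino acid synthesis list had a summed level of 586 CPM (SD 119, n = 4) at a score of 0, 1527 (SD 133) in the first positive bin, 2306 (SD 23.3) in the bin just below the high-score cells, and 2391 (SD 55.4) and 2485 (SD 93.9) in the 2 bins of high-score cells. The interferon-stimulated list fell from 3194 (SD 435) to 1305 (SD 222), 480 (SD 81.1), 417 (SD 75.6) and 438 (SD 85.7) CPM in the same bins. The ER chaperone list was at 1506 (SD 142) CPM at a score of 0, 2148 (SD 192) in the first positive bin and 1932 (SD 145) in the highest. The early activation list rose from 3260 (SD 717) CPM at a score of 0 to 5785 (SD 380) in the first positive bin. It was highest among the remaining cells, at 6666 (SD 227) in positive bin 2, against 5998 (SD 267) and 6041 (SD 569) in the 2 bins of high-score cells. Cells with a score of 0 also had fewer UMIs, with medians of 3512, 5558, 4537 and 6181 per cell against 5669, 8121, 7123 and 8592 in the first positive bin, and the part of depth in these levels was not tested.

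**Figure D4:**
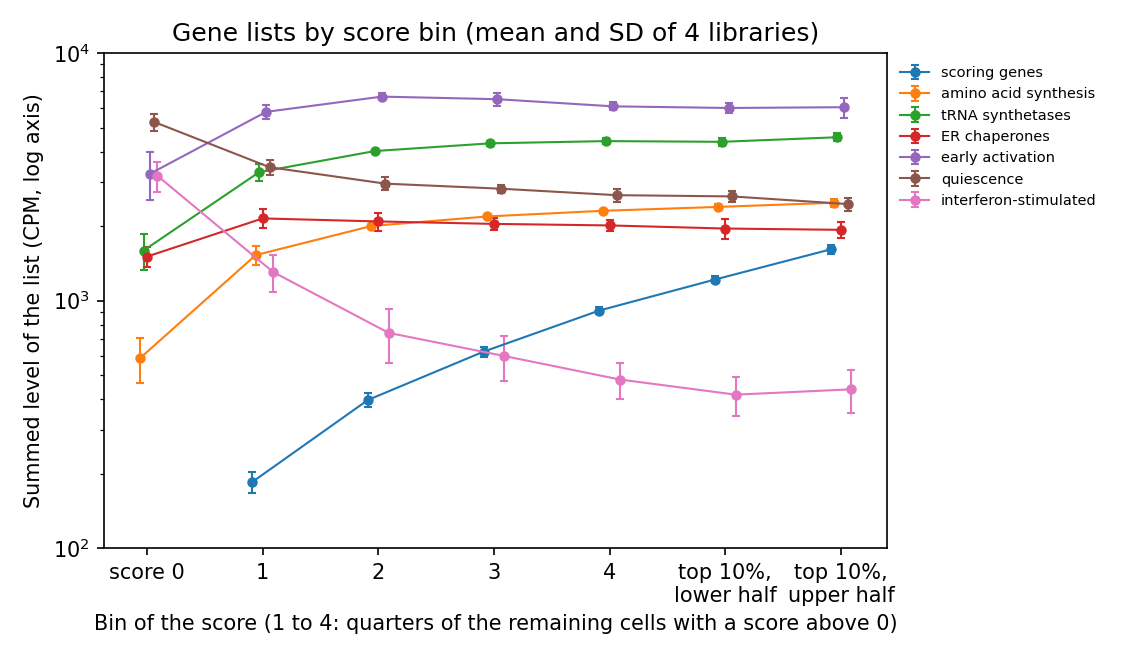
Summed level of 7 gene lists (CPM, log axis, mean and SD of 4 libraries) in bins of rising score, from cells with a score of 0, through 4 bins of the remaining cells, to 2 bins of the high-score cells. The scoring genes are 0 by construction in the first bin and are not drawn there, and the interferon-stimulated list falls from 3194 to 438 CPM while amino acid synthesis rises from 586 to 2485 CPM.

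Cytokine genes rose in 7 of 15 tested in the whole pool (median 0.40), in 6 against score-positive remaining cells, and among the more activated cells 6 rose and 6 fell. Tnfsf11 (RANKL) was at 241, 248, 232 and 227 CPM against 144, 195, 150 and 149 CPM, a log2 fold change of 0.60 and one of 0.21 among the more activated cells. Tnfsf8 (CD30 ligand) rose by 0.37, and by 0.30 there. Il2, the growth factor of activated T cells, was at 148, 139, 210 and 133 CPM against 76.3, 77.7, 74.5 and 98.9 CPM, a log2 fold change of 0.96 (SE 0.11, edgeR adjusted p = 1.26e-06). Few cells carried it. In the male library labelled knockout, 1 high-score cell held 577 of the 1005 Il2 UMIs of its class, and without that cell the level was 89.1 unscaled CPM against 78.2 in the remaining cells. Without the leading cell the other libraries stood at 124, 99.8 and 105 unscaled CPM against 79.9, 78.7 and 97.2 in the remaining cells, with the remaining cells left whole. Il13 (1.68), Csf2 (1.08) and Il4 (0.63) rose on the log2 scale from few UMIs. In the high-score cells Il13 had 39, 3, 67 and 12 UMIs in 8, 2, 7 and 2 cells. Il4 did not pass without the female or without the male library labelled knockout, with log2 fold changes of 0.30 and 0.58. Csf2 was not higher in the female library labelled wild type, and its log2 fold change was 0.50 without the male library labelled knockout. Il4 was lower in the high-score cells of both libraries labelled wild type (1.93 and 1.60 CPM, with 3.17 and 3.18 CPM in the remaining cells). Il4, Csf2 and Ccl4 did not pass in DESeq2. Ccl4 rose by 0.40, though it was lower in high-score cells of the female library labelled wild type (43.8 against 74.1 CPM). It did not pass without the female library labelled knockout (0.35) or the male library labelled wild type (0.38), and stood at -0.09 among the more activated cells.

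Genes of cell death did not move one way, with 6 that rose and 5 that fell of 14. Against score-positive remaining cells 3 rose and 5 fell of 13, and among the more activated cells 1 rose and 3 fell of 13. Bax, which permeabilises mitochondria, rose by 0.28. The survival genes Mcl1 and Bcl2 had log2 fold changes of -0.66 and -0.79. Among the more activated cells Mcl1 stayed lower (-0.20) and Bcl2 was level (0.02). Of 12 p53 targets, 3 rose and 3 fell. Against score-positive remaining cells 1 rose and 3 fell of 11, and among the more activated cells 1 rose and 1 fell.

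The study was built to compare Irf5 genotypes, and within the high-score cells few genes passed the test between the labels. Of 8893 genes tested with sex in the model, 35 passed (0.394%), of which 30 were higher (0.337%) and 5 lower (0.0562%) where the label was knockout. At an unadjusted p under 0.05 there were 633. None of the 14 amino acid synthesis genes, 11 transporters, 20 tRNA synthetases or 13 ATF4 factors passed in edgeR or in DESeq2. At an unadjusted p under 0.05 in edgeR there were 0, 2, 1 and 0 of them in that order. The levels of the scoring genes in cells they chose are fixed by the rule and are only described: Chac1 was at 61.8 and 58.7 CPM in libraries labelled knockout and 61.8 and 67.4 CPM in libraries labelled wild type, female before male. Atf4 was at 409 and 405 CPM against 417 and 425 CPM. The median score over all eligible cells was 3.55 and 3.52 per 10000 UMIs against 3.55 and 4.17, a difference of -0.32. The male library labelled wild type stood apart, and the mean score differed by -0.015. A two-sided exact permutation test on the median gave p = 0.667. With 2 against 2 libraries it cannot go below 0.333, so it cannot decide whether the score differs between labels.

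Interferon-related genes were among those higher in high-score cells of the libraries labelled knockout. Isg15 was at 32.1 and 30.9 CPM against 12.9 and 12.8 CPM, a log2 fold change of 1.29 (SE 0.20, edgeR adjusted p = 0.00122). In the remaining cells Isg15 was also higher where the label was knockout, at 78.6 and 51.1 CPM against 66.5 and 24.5 CPM. Ifi27l2a was at 175 and 150 CPM against 87.6 and 68.3 CPM (1.08), and Iigp1, an interferon-inducible GTPase gene, at 170 and 105 CPM against 90.2 and 46.6 CPM (1.06). Of the 14 interferon-stimulated genes on the fixed list that could be tested here, Isg15 alone passed, while 13 had values above 0 (median 0.43). Choosing high-score cells within 5 groups of equal activation lowered Isg15 to 0.32, Ifi27l2a to 0.37 and Iigp1 to 0.44, and none passed. Rgs1, which dampens receptor signalling, was at 32.1 and 60.1 CPM against 15.5 and 18.3 CPM and did not pass without the male library labelled knockout (0.89). Gata3, a factor of the Th2 lineage, had a log2 fold change of 0.89 that fell short without the male library labelled wild type (0.27) or the female library labelled knockout (0.68), and that was 1.46 without the female library labelled wild type. Iigp1 fell short without the male library labelled wild type (0.59). Ide, a peptidase gene, was at 139 and 125 CPM against 67.6 and 73.6 CPM (0.87). DESeq2 called Ifi27l2a and Iigp1 of these 6 genes, with adjusted p of 0.00141 and 0.00883, and not Rgs1 (0.393), Isg15 (1.00), Gata3 (1.00) or Ide (0.166). After thinning to 2000 UMIs per cell Ifi27l2a alone of the 6 passed, with Ide at an adjusted p of 0.0516.

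Of the 5 genes that were lower, Sp110, a nuclear body gene, had 0 and 1 UMI in high-score cells of the libraries labelled knockout against 135 and 317 UMIs, or 87.0 and 72.4 CPM, in the libraries labelled wild type. Arf5, a trafficking GTPase gene, was at 96.9 and 90.2 CPM against 155 and 157 CPM (-0.74), and did not pass in DESeq2 (adjusted p = 0.435) or after thinning (0.0599). The remaining 3, named after their values were seen, were Sp140 (0 and 0 UMIs against 28 and 44), Ccl20 (0 and 4 UMIs against 8 and 32) and Cited4 (20 and 9 UMIs against 23 and 54). None of these 3 passed in DESeq2, with adjusted p of 1.00 for each. Sp110 passed in all 14 alternatives tried, DESeq2 included. The difference was not limited to high-score cells, since the remaining cells held 9 and 17 UMIs of Sp110 against 1157 and 2828. Sp110 and Sp140 have near-identical relatives, and how shared reads were assigned is not given in the sources used here, so their counts are uncertain.

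Of the 15 genes tested from the cytokine list, 5 were among the 30 higher genes: Il4, Il13, Ifng, Csf2 and Penk, the last of which encodes the opioid precursor proenkephalin and not a cytokine. Ccl5, a chemokine gene outside the list that was named after its values were seen, was also among the 30 (1.87), though DESeq2 did not call it. DESeq2 called Il4 and Ifng only, with Il13, Csf2 and Penk at an adjusted p of 1.00. Without the sex term in edgeR Il4 alone passed, with adjusted p of 0.0643 for Il13, 0.0705 for Ifng, 0.870 for Csf2 and 0.494 for Penk. Penk came from 2 and 6 cells in the libraries labelled knockout, and 1 cell held 10 of its 11 UMIs in the female one. Il4 had 78 and 107 UMIs in libraries labelled knockout against 3 and 7. The remaining cells differed in the same direction, at 10.6 and 13.3 CPM against 3.17 and 3.18 CPM. The UMIs in high-score cells came from 10 and 15 cells against 2 and 4, and the 5 leading cells held 88.5% and 83.2% of them in the libraries labelled knockout.

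**Figure D5:**
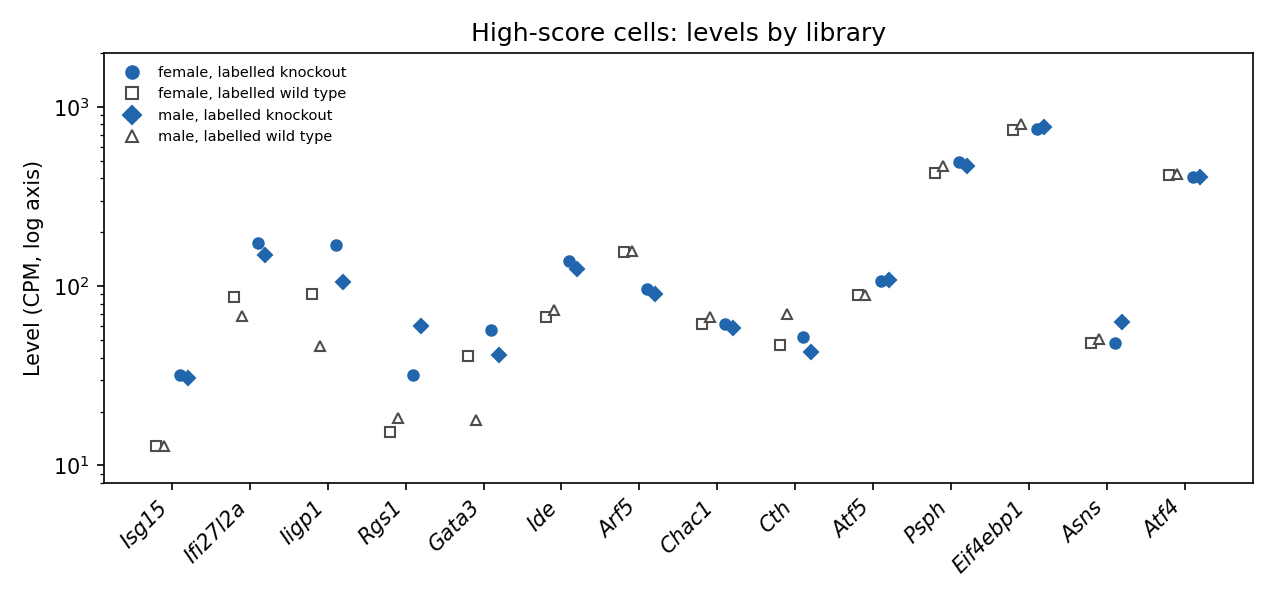
Level (CPM, log axis) in high-score cells of each library, filled for libraries labelled knockout and open for libraries labelled wild type, for 7 genes called between the labels (Isg15 to Arf5) and 7 genes of the stress response (Chac1 to Atf4). The 7 called genes were drawn because they passed the test, and the levels of the 5 scoring genes are fixed in part by the choice of cells, so both are a description. Isg15 lies at 32.1 and 30.9 against 12.9 and 12.8 CPM, and Atf4 at 409 and 405 against 417 and 425 CPM.

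The difference between high-score and remaining cells was itself compared between labels. The genotype term passed for 3 of 10583 genes (0.0283%), with 492 at an unadjusted p under 0.05. Those genes were Ifng, Ifi27l2a and Igha. For Ifi27l2a the log2 fold change from remaining to high-score cells was -1.40 and -1.38 in the libraries labelled knockout against -2.14 and -2.04. Between sexes no gene passed in edgeR (494 at an unadjusted p under 0.05) and 1 passed in DESeq2.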

How the data were processed

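The authors deposited 1 matrix of raw UMI counts per library, holding all barcodes. Cell Ranger 6.0.2 and mm10 stand in the submitters' processing notes, whereas the file headers write Cell Ranger 4. The annotation and strand setting are not given in the sources used here. Gene positions came from GENCODE M21 on GRCm38, which held 99.6% of the 32285 gene IDs.

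Counts of the high-score and remaining cells were summed per library, giving 8 sums. edgeR 4.0.16 (R 4.3.3) fitted library and class by its quasi-likelihood test with Benjamini-Hochberg adjustment over all genes kept by its expression filter. SE is the log2 fold change divided by the root of F. Labels were compared on the 4 high-score sums with sex in the model. When a library was left out of that fit the sex term was dropped, and the lone library is assumed to vary like the other group. Interaction terms compared the class contrast between labels and between sexes. DESeq2 1.42.0 was an alternative. The procedures were tested on simulated data. No doublet caller was run. An alternative left out the 5% of cells with most UMIs.

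The genes named were the 12 largest and 12 smallest log2 fold changes among adjusted p under 0.05, equal direction in 4 libraries and at least 20 CPM, with up to 6 each way for the labels, where 16 qualified, only 2 of them lower. Other list members are examples, some named for their role after their values were seen. The members and lists were chosen with earlier results of these data known. Choosing within groups of equal activation, and remaining cells with a score above 0, were added after seeing the data. Results for a few genes that the naming rule or the lists hold are not reported here.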

Additional observations from a re-analysis of the deposited data

Results flagged for a closer look

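The difference between high-score and remaining cells differed between the genotype labels for 3 genes by the interaction term of edgeR's quasi-likelihood test. For Ifng, which encodes interferon gamma, the log2 difference of contrasts was 5.97 (SE 0.66, adjusted p = 0.00148), and DESeq2 gave an adjusted p of 0.0915. High-score cells held 33, 0, 141 and 1 Ifng UMIs in 7, 0, 13 and 1 cells, and the remaining cells 115, 44, 371 and 147 UMIs in 40, 14, 50 and 28 cells. For Ifi27l2a, an interferon-stimulated gene, the log2 difference was 0.69 (SE 0.09, adjusted p = 0.00335), and DESeq2 gave an adjusted p of 0.00145. For Igha, the heavy chain of immunoglobulin A, it was -4.88 (SE 0.70, adjusted p = 0.0185), and DESeq2 gave an adjusted p of 1. Of the 882 Igha UMIs in the remaining cells of the female library labelled knockout, 828 lay in 1 cell.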

How the results depend on the processing

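The 4688 genes called between high-score and remaining cells became 2642 when cells were chosen within groups of equal activation, 1972 against remaining cells with a score above 0 and 783 among the more activated cells, where the left-out Chac1 stood at 0.33. The 35 genes called between labels became 5 in DESeq2, 133 without the expression filter, 14 after thinning, 12 without the cells with most UMIs, 14 within groups of equal activation and 6 without the sex term. Leaving out 1 library gave 31 to 244, with 103 without the female library labelled knockout and 244 without the female library labelled wild type. The difference of contrasts between labels was called for 1 gene in DESeq2 and 58 without the filter, and that between sexes for 1 and 52. Among the more activated cells the sign turned for Hspa5 (-0.076), Ccl4 (-0.093), Nfkb1 (-0.075), Cd69 (-0.16), Myc (-0.089), Atf3 (-0.17) and Bcl2 (0.017). It turned against score-positive remaining cells for Hspa5 (-0.00060) and Cd69 (-0.014), within groups of equal activation for Cd69 (-0.071), after thinning for Dnajb9 (-0.059) and Nfkbid (0.11), and within groups of equal UMIs for Irf8 (0.12), Nfkbid (0.10), Rel (0.077) and Egr1 (0.11). The cause was not tested. Of the 91 genes of the class contrast that were followed, 66 of 90 kept direction and call among the more activated cells and 85 of 91 in DESeq2. The contrast of high-score with remaining cells is paired within each library, and without the library block 4049 genes were called. The comparison of genotype labels is matched by sex through its sex term, without which the count is the 6 given above. Each group holds 1 library, and Il4, Il13 and Ifng rest on few cells.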
